A study of Mus musculus with 3 samples.

Results

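TEC genes are entries of the mouse gene annotation that still await experimental evidence: short stretches, nearly always unspliced, that were annotated from clusters of cDNA ends with features of a polyadenylated RNA. The genes described here are those whose transcripts are all of type TEC and whose mean TPM (a transcript level scaled for length and sequencing depth) over 3 chromatin libraries was at least 10. This rule selected 174 of 3213 TEC genes, which is 5.42%, and these 3213 are among 55536 annotated genes in the tables. Since the measured level chose the members, their levels are given as a description with no test. Over all annotated genes, 4258 reached the same mean, which is 7.67%. A further 45 genes that carry TEC transcripts beside transcripts of another type were not members, and 1388 TEC genes were listed at 0 in every library.

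The libraries hold total RNA, depleted of ribosomal RNA, from the chromatin fraction of bone marrow-derived macrophages, primary phagocytes grown from marrow. The cells came from C57BL/6J mice and all had received Lipid A, the Toll-like receptor 4 ligand within lipopolysaccharide, at 100 ng/ml during 40 min. Sex and age were not collected, and the 3 biological replicates name 1 donor record with separate biosamples. The starting RNA was 1 µg for replicate 1, 250 ng for replicate 2 and 500 ng for replicate 3. An untreated or later sample was not analysed here, so nothing below is a response to Lipid A. Comparisons are between genes and between the 3 libraries, and nothing in the labels says whether the cultures were made on separate days.

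Chromatin-bound RNA is rich in RNA that is still being made, so introns, which are spliced out and degraded before export, leave more signal there than in cytoplasmic RNA. A TEC gene that lies within an intron on the same strand as a longer gene, here called its host, shares its sequence with the host's unspliced RNA. The deposited tables assign reads to annotated exons and hold no separate value for introns. A transcript of the TEC gene's own and unspliced RNA of the host therefore cannot be told apart in these values.

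Replicates 1, 2 and 3 held 12699813, 18280033 and 18087091 expected counts in all, and the 174 TEC genes took 2.06%, 1.33% and 1.55% of them. They held 73.0%, 73.0% and 73.5% of all counts assigned to TEC genes. Of 10 macrophage markers 8 had a mean TPM of at least 10, with a summed TPM of 750 to 851, and only the scavenger receptor gene Cd163 lay below 1, at 0.633. Of 20 markers of T, B and NK cells, neutrophils, erythroid cells, fibroblasts and endothelium, 19 lay below 1 and 7 were at 0, with a summed TPM of 3.29 to 6.30. The exception was Cd4, at 2.96. In bulk libraries, fewer cells with a transcript and less of it per cell cannot be told apart.

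The annotated 3′ ends show what kind of sequence these entries close on. The last 60 bases of 11 members are printed 5′ to 3′ in lower case, from the annotation's transcript sequences (GENCODE M21, mm10). Where the last 50 bases hold AATAAA or ATTAAA, the hexamers that direct cleavage and polyadenylation of mRNA, the match nearest the end is in capitals. The first 5 lines are high members inside introns with neither hexamer in that window. The next 4 hold a hexamer, and the closing pair shows 2 entries with the same sequence at different places.
Gm37084: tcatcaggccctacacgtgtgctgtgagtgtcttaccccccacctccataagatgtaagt
Gm38357: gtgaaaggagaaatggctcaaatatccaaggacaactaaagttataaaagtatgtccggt
A630081D01Rik: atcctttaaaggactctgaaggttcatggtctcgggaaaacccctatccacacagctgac
Gm45221: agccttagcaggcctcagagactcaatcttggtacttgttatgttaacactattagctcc
Gm43982: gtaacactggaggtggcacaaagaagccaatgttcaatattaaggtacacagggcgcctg
Gm38062: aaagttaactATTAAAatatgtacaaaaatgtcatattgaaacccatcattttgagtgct
Gm45222: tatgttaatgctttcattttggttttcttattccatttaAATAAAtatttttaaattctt
Gm36638: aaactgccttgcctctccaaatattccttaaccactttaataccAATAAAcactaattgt
Gm44207: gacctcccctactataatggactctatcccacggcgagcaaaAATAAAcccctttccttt
Gm20236: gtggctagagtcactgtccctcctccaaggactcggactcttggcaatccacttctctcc
Gm37094: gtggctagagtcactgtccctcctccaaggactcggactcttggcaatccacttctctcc

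On mm10 these ends lie at chr1:131086252-131086311 on the minus strand for Gm37084, chr3:51234321-51234380 on the plus strand for Gm38357 and chr1:80747222-80747281 on the minus strand for A630081D01Rik. Gm45221 ends at chr7:90188139-90188198 and Gm43982 at chr6:134075123-134075182, both on the plus strand. Gm38062 ends at chr1:80728809-80728868 on the minus strand, with its hexamer starting 50 bases from the end. Gm45222 ends at chr7:90150195-90150254 on the plus strand, with the hexamer 21 bases from the end. The Gm36638 printed is the gene with identifier ENSMUSG00000104214.1, at chr13:101749720-101749779 on the minus strand, with the hexamer 16 bases from the end. Gm44207 ends at chr6:89346504-89346563 on the plus strand, with the hexamer 18 bases from the end. Gm20236 and Gm37094 end on the minus strand at chr14:69277601-69277660 and chr14:69495851-69495910.

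Of the 174 members 38 held a hexamer in the last 50 bases, which is 21.8%, with AATAAA in 30 and ATTAAA in 8. Of the other 3039 TEC genes 29.3% held one, AATAAA in 22.0% and ATTAAA in 8.9%. The share was 25.6% among the 620 other TEC genes at a mean TPM of at least 1. It was 50.2% among 58787 protein-coding transcripts of the same annotation, which were not filtered for a complete annotated end. Only the transcript's own strand was searched, no member held both hexamers, and 47 of the other TEC genes did. A run of AAAAAA stood in the last 30 bases of 5 members, which is 2.9%, against 6.8% of the other TEC genes. The median GC content was 42.8% in the members and 42.3% in the other TEC genes. A match of letters is a description, and its absence says only that the letters are not in this window.

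Most of the highly represented TEC genes lay inside introns of well-expressed genes. By the annotation, 133 of 174 (76.4%) were inside an intron on the same strand as a gene of another type, and 6 more (3.4%) overlapped such a gene's exons. Another 5 (2.9%) started within 5 kb past the end of a same-strand gene, 27 (15.5%) overlapped only a gene of the opposite strand and 3 (1.7%) did none of these. Among all other TEC genes 49.0% were inside a same-strand intron and 26.6% had no such neighbour. Against the 620 other TEC genes at a mean TPM of at least 1 the gap narrowed, with 71.5% inside a same-strand intron and 6.0% with no neighbour. Of 58 long intergenic noncoding RNA genes at a mean TPM of at least 10, 4 were inside a same-strand intron, which is 6.9%. That type is defined by lying between genes, and its own genes were left out as possible hosts. A low share was therefore given beforehand, and no conclusion on the members is drawn from it. The members had a median span of 2197.5 bases, from 166 to 7350, and 172 of them had a single exon.

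**Figure D1:**
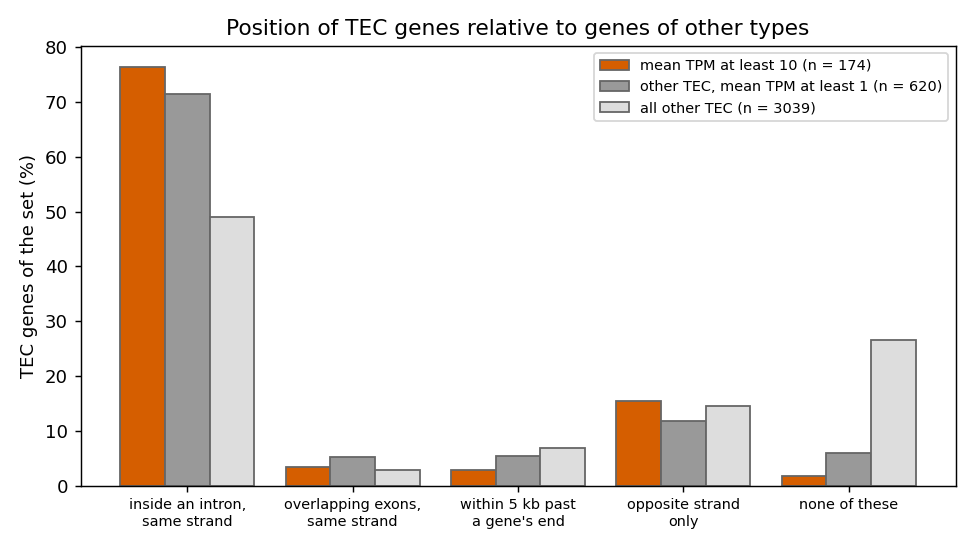
Percentage of TEC genes in each position class, from the M21 annotation, for the 174 genes at a mean TPM of at least 10, the 620 other TEC genes at a mean TPM of at least 1 and all 3039 other TEC genes. The first set had 76.4% of its genes inside a same-strand intron, against 71.5% and 49.0%, and 1.7% in none of the named classes, against 26.6% of all other TEC genes.

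The same-strand hosts of the members were themselves high. The 139 members inside or over a same-strand gene shared 102 hosts, with a protein-coding host for 131 of them. Every host had a mean TPM of at least 1, and 132 of the 139 members (95.0%) had a host at 10 or more. Among the other TEC genes with a host, 22.4% had one at 10 or more, and 65.1% did where the TEC gene itself reached a mean TPM of 1. The median host TPM was 60.75 for the members, 19.12 for the other TEC genes at a mean TPM of at least 1 and 0.59 for all other TEC genes. Since the members were chosen by level in the same libraries, this is not an independent test of a link between the levels.

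The highest member was Gm37084 (ENSMUSG00000102856.1, chromosome 1, 131086252 to 131092149, minus strand), which lies in intron 1 of Mapkapk2, the gene of a kinase that stabilises cytokine mRNA. Its TPM was 373, 187 and 238 in replicates 1, 2 and 3, from 29375, 24150 and 28575 expected counts. Replicate 1 was the highest and replicate 2 the lowest. Mapkapk2 itself stood at 295, 139 and 227, in the same order.

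Gm38357 lies in an intron of Noct, which encodes the circadian phosphatase nocturnin, and had a TPM of 245, 135 and 183 against 145, 95.0 and 134 for Noct. Here too the TEC gene lay above its host in every library. A630081D01Rik (TPM 315, 81.8 and 148) and Gm38062 (191, 61.7 and 106) both lie in intron 1 of Dock10. Dock10 itself varied less, at 140, 96.8 and 112.

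Picalm, whose product recruits clathrin to membranes, held 3 of the 12 highest members. Gm45221 in intron 13 had a TPM of 160, 128 and 146, Gm45223 in intron 1 had 147, 92.9 and 122, and Gm45222, also in intron 1, had 141, 91.0 and 117. All 3 stood far below Picalm, which was at 744, 544 and 594. Gm37159, in intron 1 of the ceramide synthase gene Cers6, had 144, 64.6 and 77.2. Gm37390, in intron 2 of Itpkb, the gene of an inositol trisphosphate kinase, had 116, 110 and 59.9, so that its lowest library was replicate 3. Gm43982, in intron 2 of the ETS-family repressor gene Etv6, had 118, 68.6 and 78.0.

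The other 2 of the 12 overlapped exons. Gm42793 (TPM 325, 220 and 252) shares the strand and exons of Spp1, the osteopontin gene, which stood at 348, 194 and 232. Its expected counts were not whole numbers (4675, 5056 and 5457), so reads were divided between it and other transcripts. AC167363.2 (169, 235 and 248) lies across exons of Cdkn1a, the gene of the cell cycle inhibitor p21, on the opposite strand. It was lowest in replicate 1, where Cdkn1a was highest (219, against 146 and 201). The sources do not say whether counting used the strand, so reads of AC167363.2 and Cdkn1a cannot be told apart with certainty.

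**Figure D2:**
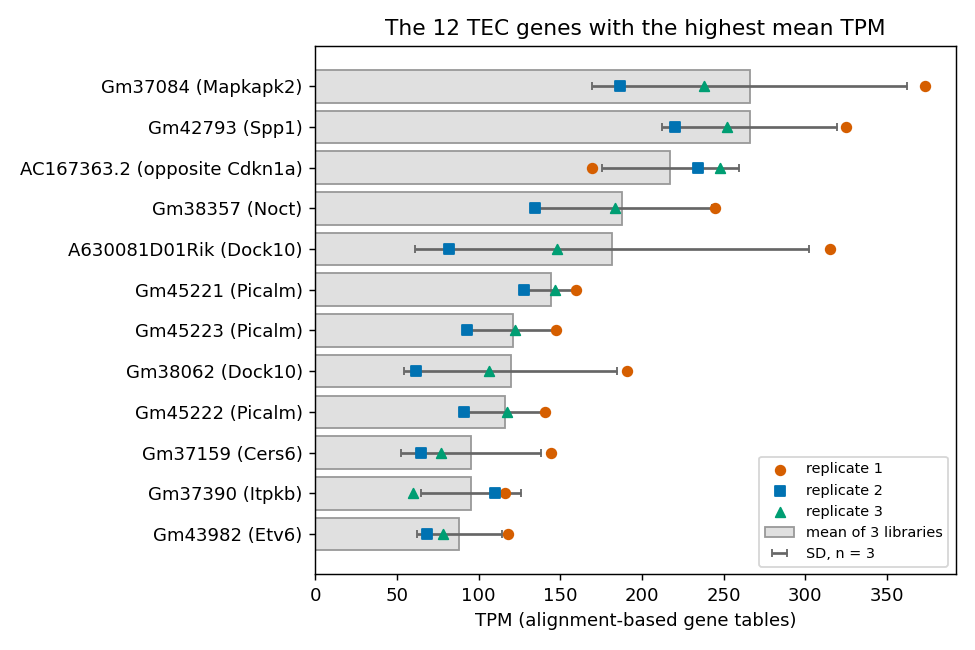
TPM of the 12 TEC genes with the highest mean, with bars for the mean of 3 libraries, lines for the SD (n = 3) and 1 point for each replicate; the host gene, or the gene on the opposite strand, is in parentheses. Replicate 1 is the highest point for all but AC167363.2, and replicate 2 the lowest for all but AC167363.2 and Gm37390.

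Below these the levels fell off steeply. Of the 174 members 9 had a mean TPM of at least 100, 33 of at least 50 and 84 of at least 20, with a median of 18.75 and quartiles of 13.39 and 39.54. In every library 122 members reached 10, while 2, 48 and 11 lay below 10 in replicates 1, 2 and 3. The members just inside the rule were Gm47963 at 10.28, Gm44443 at 10.08 and Gm36940 at 10.03, and just outside lay Gm37311 at 9.997, Gm37940 at 9.91 and Gm44834 at 9.60. The 5 members with the highest mean expected counts were Gm37084, Gm45223, Gm37033 in Itpkb, Gm45222 and Gm38357. The median member had a mean of 783.8 expected counts, and 166 had at least 100 in every library. At the other end, Gm47089, 166 bases long, rested on 4, 2 and 2 counts, and Gm38109, 181 bases long, on 3, 3 and 5. Their TPM is set by a very short effective length.

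Between a member and its host the member was usually the lower. The median log2 ratio of member to host TPM was -1.17, -1.29 and -1.23 in replicates 1, 2 and 3, on the scale of log2(TPM + 0.1), with quartiles of -2.44 and -0.31 for the mean ratio. A member lay below its host in every library in 108 of 139 cases and above it in every library in 18. Across the 139 pairs, which share libraries and often a host, Pearson's r of the log2 levels was 0.511 and Spearman's rho 0.501, given as a description. The library with the highest TPM was the same for member and host in 108 pairs.

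The 4 highest ratios were in hosts of low level. Etv6 stood at 13.5, 9.58 and 9.31, while Gm43982 lay 3.00 ± 0.15 log2 units above it (SD, n = 3) and its neighbour Gm43984, at 94.3, 53.2 and 58.9, lay 2.64 ± 0.17 above. Maml2, which encodes a coactivator of Notch, stood at 3.04, 1.38 and 2.26, and Gm47087 in its intron 1 had 25.1, 8.64 and 15.5. Gm47089, with the few counts given above, had 27.3, 10.2 and 10.1 in the same intron. The 4 lowest ratios were in Gm37728, at -4.96 ± 0.37 log2 units relative to the noncoding RNA gene Lncpint, Gm44283 (-4.12 ± 0.43 relative to Dennd1a), Gm43362 (-4.05 ± 0.22 relative to the splicing factor gene Srsf11) and Gm38374 (-3.71 ± 0.38 relative to the ubiquitin ligase gene Trip12). All 4 had a mean TPM between 10.48 and 15.29, near the rule's minimum, while their hosts were above 100 TPM in every library.

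**Figure D3:**
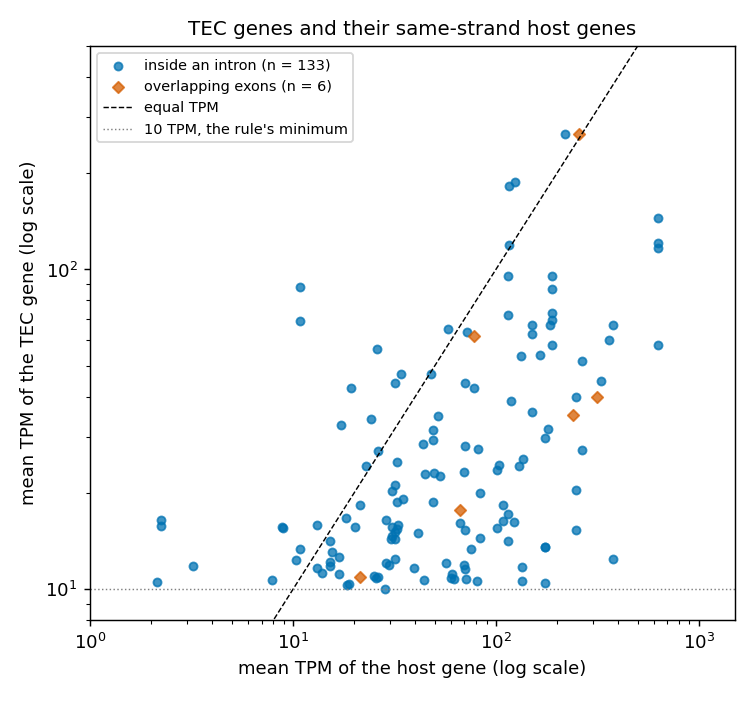
Mean TPM of each TEC gene against that of its same-strand host gene, both on log scales, for the 133 members inside an intron and the 6 overlapping exons; the dashed line marks equal TPM and the dotted line the rule's minimum of 10. Most points lie below the line of equal TPM, and the 2 members in Etv6 lie farthest above it among members with a mean TPM above 50.

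Members tended to lie in the early part of their hosts. The median distance from the host's start was 27.86 kb, or 27.1% of the host's span, against 42.4% for the other TEC genes with a host. Within the 25% of the host's span nearest its start lay 64 of 139 members, against 490 of 1574 other TEC genes with a host and 120 of the 475 of them with a mean TPM of at least 1. Of 117 members whose intron could be numbered in the host's longest transcript, 44 were in intron 1, a share close to that of the other TEC genes, where it was 461 of 1252, and 116 of 376 at a mean TPM of at least 1. No test was run on these counts, since members within a host are not independent.

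A host held 1 member in 75 cases, 2 in 21, 3 in 2 and 4 in 4. The 6 hosts with 3 or 4 members were singled out after their values were seen. Only members are followed along them, so any TEC gene of these hosts with a mean TPM below 10 is left out. In Camk2d, a calmodulin-dependent kinase gene of 250.0 kb, Gm43011, Gm43010, Gm43009 and Gm43006 lay at 3.73, 29.58, 48.16 and 61.42 kb from the start and had mean TPM of 44.0, 28.1, 15.3 and 11.6, in falling order in every library. In Cers6 the means were 95.4, 71.9, 17.2 and 14.2 for Gm37159, Gm38236, Gm37651 and Gm37666, at 29.92, 44.56, 100.78 and 152.17 kb. In Plxna2, a semaphorin receptor gene, they were 31.5, 29.4 and 18.7 for Gm37783, Gm37674 and Gm38036. In these 3 hosts the member nearer the start had the higher mean throughout.

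The other 3 hosts did not fall steadily. In Med13l, a gene of the Mediator complex, the means were 21.2, 15.1, 12.4 and 14.4 for Gm43788, Gm43275, Gm43274 and Gm43052. In Picalm the highest of 4 was the third from the start, Gm45221, and the lowest the fourth, Gm45220, at 58.0. In Itpkb the middle member was the highest, with 69.5, 95.3 and 72.9 for Gm37033, Gm37390 and Gm36933, and all 3 were lowest in replicate 3. Over all 51 pairs of members within 27 hosts the member nearer the start was the higher in 36, and over 392 pairs of TEC genes at a mean TPM of at least 1 in 244. Pairs share hosts, so these are counts only.

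**Figure D4:**
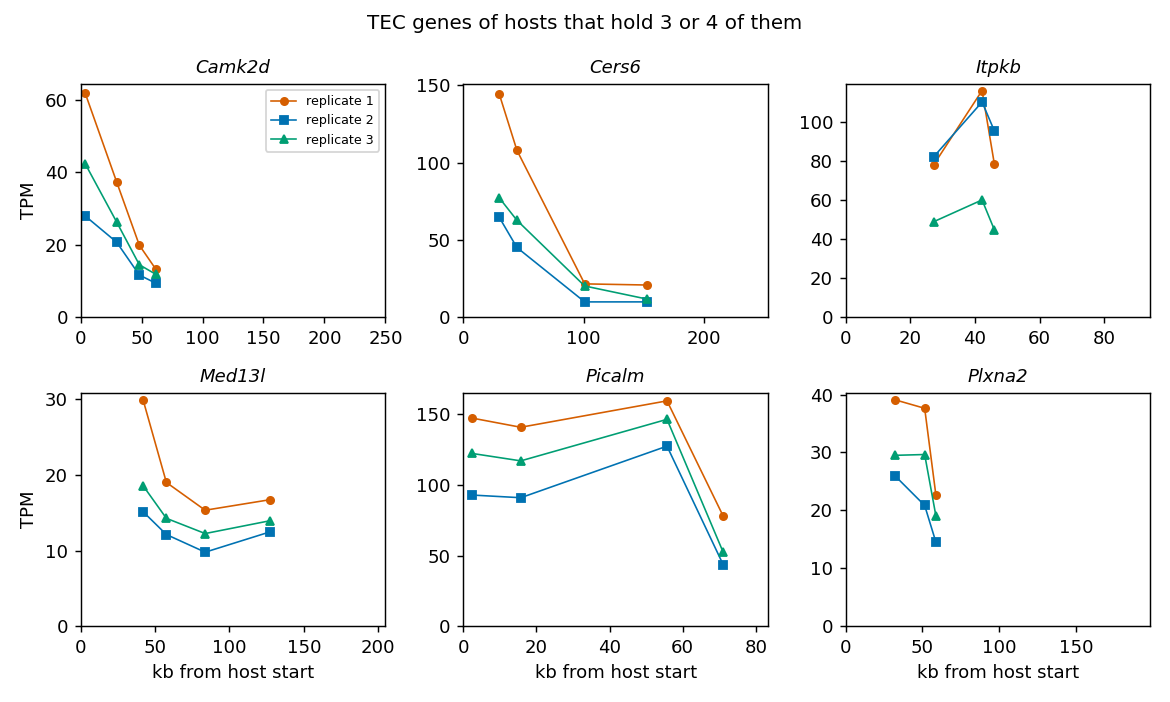
TPM of the TEC genes in the 6 hosts that hold 3 or 4 members, against their distance in kb from the host's annotated start, with the x axis running to the host's end and 1 line for each replicate. The lines fall from left to right in Camk2d in every library, while in Itpkb the middle gene is the highest.

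Median TPM by position is given as a description only, since the rule cut this level at 10. It was 18.74 for the members inside introns and 19.53 for the 27 members with only an opposite-strand neighbour. Their partners included Slc6a6, a taurine transporter gene (Gm44981, at 97.0, 67.2 and 77.1), and the signalling kinase gene Irak2 (Gm43963, at 28.7, 14.7 and 15.2). These and the members in the next sentences were named after their values were seen. The 5 members past the end of a same-strand gene had a median of 14.19, the highest being 2210406H18Rik, 108 bases past Igsf6, at 62.5, 30.2 and 33.7. The 3 members with no such neighbour were Gm37352 (29.7, 27.8 and 29.9), Gm45553 (22.3, 16.6 and 22.6) and Gm44154 (17.4, 8.35 and 12.2).

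Whole expected counts were more frequent where a member overlapped no exon of another gene type. Sequence shared between loci can divide reads too, and it was not separated from overlap. Expected counts were whole numbers, to within 0.005, in every library for 148 of 151 members that overlapped no exon of another gene type. Of the 6 members over same-strand exons 1 had whole counts throughout, and of 17 over opposite-strand exons only, 7 did. Of the 3 exceptions in the first set, Gm20236 and Gm37094 are 4540 bases long with identical sequence, in introns 1 of Slc25a37, a mitochondrial iron importer gene, and Gm16867. They carry the same TPM in each library (66.7, 23.9 and 51.2), an equal division of shared reads, so neither level can be assigned to a single locus. The other exception was Gm37226.

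The alignment-free tables, made from the same reads, placed most members at a similar level. Of the 174 members 170 had a mean of at least 10 there too, and 159 lay within 1.5-fold. The 6 that were more than 2-fold higher included Gm37689, 275 bases long, with 372, 226 and 278 against 84.5, 64.2 and 52.6. Gm37123 had 103, 75.5 and 163 against 28.1, 18.3 and 35.0, Gm37082 37.5, 40.9 and 49.3 against 17.6, 14.5 and 11.9, and Gm36638 (ENSMUSG00000102635.1, 400 bases) 247, 74.5 and 84.6 against 94.9, 42.1 and 37.7. Gm47089 completed the 5 largest upward gaps. No member was more than 2-fold lower, and the 5 largest downward gaps were -0.30 to -0.23 log2 units, in 6430511E19Rik, Gm42793, 4932442E05Rik, Gm38235 and Gm45222. The alignment-free tables also put 203 other TEC genes at 10 or more, with a median span of 1497 bases.

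Of 84 genes listed for this work, 2 hosted a member. The list, called response genes here, holds early NF-κB targets, immediate-early genes and interferon-linked targets, and also macrophage genes. Gm43430 lies within Nfkb1, which encodes an NF-κB subunit, and had 73.7, 41.4 and 46.9 against 188, 125 and 181 for its host. A130071D04Rik lies within Ptprc, the gene of the leukocyte phosphatase CD45, at 68.6, 20.7 and 45.0 against 478, 203 and 307. Ptprc is on the list as a macrophage gene and not as a target of the response. Both were highest in replicate 1 and lowest in replicate 2, as their hosts were. These 2 are 1.15% of the members. Of the other 3039 TEC genes 1, Gm43814 past the end of Ccrl2, lay at a listed gene, and its mean TPM was 8.83 ± 1.39 (SD, n = 3).

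The members' levels differed between libraries in a shared order, with a larger median SD than the other genes at a mean TPM of at least 10. Those genes were not matched to the members by level. TPM was highest in replicate 1 for 149 of 174 members, which is 85.6%, against 66.7% of all genes at a mean TPM of at least 10. It was lowest in replicate 2 for 137, which is 78.7%, against 50.4%. The median SD of log2(TPM + 0.1) was 0.439 in the members, 0.27 in the 4084 other genes at a mean TPM of at least 10 and 0.507 in the 58 long intergenic noncoding RNA genes. The members' median deviation from their mean was 0.42 in replicate 1, -0.36 in replicate 2 and -0.01 in replicate 3. On TMM-scaled log2 CPM, which adjusts for library composition, it was 0.24, -0.26 and 0.06, while that of the other genes was -0.01, 0.01 and 0.02. For the long intergenic noncoding RNA genes it was 0.27, -0.31 and 0.08 on that scale, so the order was not seen in TEC genes alone. Replicate 1 had the most starting RNA and the fewest counts, and the part of either in this order was not tested.

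The widest SD was in Gm49730, over exons of Parp14 (58.6, 13.5 and 32.8), followed by A630081D01Rik, Gm37606 in the noncoding host gene Mir99ahg (19.2, 4.97 and 9.34) and A130071D04Rik. The narrowest were Gm44207, opposite the semaphorin receptor gene Plxna1 (23.7, 24.0 and 23.1), Gm42819 in intron 1 of Notch2 (16.8, 15.6 and 15.8), Gm37352 and Gm37127, opposite Fam168b (21.1, 19.5 and 21.3). Of these 4 steady genes only Gm42819 has a same-strand host, and Notch2 was as steady, at 67.8, 62.6 and 68.4.

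Whether a gene's share changed with the starting RNA quantity was tested over all genes with edgeR's quasi-likelihood test on rounded expected counts, as the log2 change per doubling of the quantity. Of 172 members tested, 25 rose with the quantity at a Benjamini-Hochberg adjusted p under 0.05, which is 14.5%. Of all 12931 genes tested, 2.28% rose and 4.11% were called in either direction. Those genes were not matched to the members by level. The 25 include Gm20236 and Gm37094, which carry the same divided reads and so count 1 signal 2 times. None fell, against 1.83% of all genes; 3 members had a negative slope at an unadjusted p under 0.05, and DESeq2 called none falling and 20 rising. The slope was above 0 in 149 members (86.6%, against 50.1% of all genes), and the median slope was 0.24 in the members and 0.00 over all genes. On alignment-free counts 1 member rose, where 0.178% of genes were called in either direction, and with the slope on the quantity itself instead of its log2, 5 rose, where 0.804% were. The fit rests on 3 libraries and 1 residual degree of freedom, and quantity, replicate and culture cannot be told apart.

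The strongest slope by p was that of A630081D01Rik, 0.82 ± 0.11 (SE, adjusted p = 0.00318, edgeR; 3 libraries), while that of its host Dock10 was 0.00 (adjusted p = 0.988). Gm38062 in the same intron had a slope of 0.66 (adjusted p = 0.00785). The next were Gm49730 at 0.90 (adjusted p = 0.00344), Gm37606 at 0.81 (0.00344) and Gm43197, in Gm20559, at 0.69 (0.00704). A130071D04Rik, Gm47087, Gm49125 in the phospholipase gene Ddhd1 and A430028G04Rik opposite Ppm1h followed, with slopes of 0.56 to 0.70 and adjusted p of 0.0141 to 0.0203. Of the 21 called members with a host, 6 had a host that was called too, among them Mir99ahg at 0.63 and Ddhd1 at 0.52. Over the 102 hosts, 10 rose and none fell, with a median slope of 0.12. Of all 12931 genes tested, 2.28% rose and 1.83% fell. Among the hosts, 5 had a negative slope at an unadjusted p under 0.05, and DESeq2 called none falling. The difference between a member's slope and its host's was not tested.

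**Figure D5:**
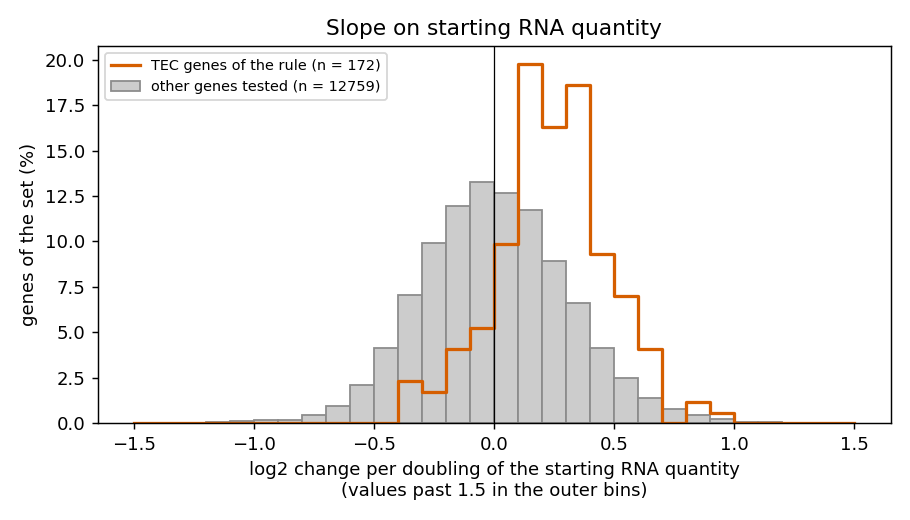
Percentage of genes in each 0.1-wide bin of the log2 change per doubling of the starting RNA quantity (edgeR), as grey bars for the 12759 other genes tested and an orange line for the 172 TEC genes. Of the TEC genes 149 lie above 0, with a median of 0.24 over all 172, while the other genes are centred near 0.

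Membership itself could favour genes high in replicate 1, since the rule averages the same libraries, and this was not tested. The subsets below were picked on the same values and are given as counts only. Of the 147 members tested whose mean was at least 10 without replicate 1, 22 rose. Of the 121 at 10 or more in every library, 20 did, while 2.28% of all 12931 genes tested rose. Chosen on replicates 2 and 3 alone, 149 TEC genes passed the rule, and 147 of them were at 10 or more in replicate 1. That count was largely given, since replicate 1 had the highest TPM for 66.7% of all genes at a mean TPM of at least 10. Chosen on replicates 1 and 3, 194 passed and 126 of them reached 10 in replicate 2. This count was partly given too, since replicate 2 had the lowest TPM for 50.4% of all genes at that mean. Chosen on replicates 1 and 2, 177 passed and 160 reached 10 in replicate 3.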

How the data were processed

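Expected counts, TPM and FPKM per gene, and estimated counts and TPM per transcript from an alignment-free method, were deposited by the authors for each library, per the file headers. Genome mm10 and annotation M21 are those of the deposited notes. Which programs, filters and strand setting were used is not given in the sources used here. Transcript types came from the alignment-free tables and positions from the GENCODE M21 annotation of the same release, in which every member was found. Spike-in, tRNA and phiX rows were left out of tests. The host was the overlapping same-strand gene of another type with the highest mean TPM. Levels were compared as log2(TPM + 0.1).

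Slopes on log2 of the starting quantity were fitted with edgeR 4.0.16 in R 4.3.3 (filterByExpr with a minimum count of 10, TMM scaling, quasi-likelihood F test, Benjamini-Hochberg over all genes), with expected counts rounded first. DESeq2 1.42.0 served as an alternative. On data simulated for this test with 12627 genes, 80 of 90 genes with a slope of 1 were called. So were 79 of 79 with a slope of 2 and 1 of 12458 unchanged genes. The simulation gave all genes the same dispersion and held no changed genes with smaller slopes. The called members had slopes of 0.42 to 0.903, so it does not show how often slopes of that size are called. False calls with dispersions that vary by gene were not simulated. Standard errors are the slope over the square root of F. Total expected counts of 12699813 to 18280033 set the precision.

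The members and the lists of response genes and markers were chosen with earlier results of these data known. Named genes are the 12 highest by mean TPM, the 5 highest by counts, 3 on each side of the threshold, the 4 widest and narrowest by SD, the 4 highest and lowest ratios to the host, the 5 largest gaps each way between the deposited tables, members at a listed response gene and the 10 strongest slopes, of which 1 is not reported here. Sequence past the annotated ends and repeats were not analysed here.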

Additional observations from a re-analysis of the deposited data

How the results depend on the processing

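The number of TEC genes selected was 342 at a mean TPM of at least 5, 84 at 20 and 373 with alignment-free TPM, and 149 to 194 with 1 replicate left out. It stayed within 1.5 times 174 with FPKM (196) and with count minimums of 10 (172) or 100 (166). The median SD was 0.274 without replicate 1, 0.552 without replicate 3 and 0.562 with alignment-free TPM. The median deviation in replicate 3 was near 0 and changed sign, to 0.056 with TMM scaling, 0.045 with DESeq2 size factors, 0.017 with alignment-free TPM and 0.177 without replicate 1, against -0.22 without replicate 2. Those of replicates 1 and 2 kept their sign under all alternatives run, at 0.22 to 0.541 and -0.521 to -0.177. Members past a gene's end numbered 1 within 2 kb and 7 within 10 kb. The median log2 ratio to the host was -1.649 with alignment-free TPM and -1.258 to -1.183 with 1 replicate left out. The count of members inside or over a same-strand gene lay between 131 and 139.

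Members that rose with the starting quantity numbered 1 with alignment-free counts, where 39 of 21904 genes were called, and 5 with the slope on the quantity itself. They numbered 27 with DESeq2's size factors (4.42% of all genes called in either direction), 33 without a filter (4.91%) and 20 with DESeq2 (2.27%), sharing 25, 25 and 20 with the 25 reported. Among members at 10 or more without replicate 1, or in every library, both chosen after seeing the data, they numbered 22 and 20. The cause of the lower counts was not tested. With 1 library left out this slope has no residual degree of freedom and could not be fitted. No paired analysis was possible because the series used here has 1 group. Depth limits the shortest members, which rest on fewer than 10 counts.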
